A study of Mus musculus with 8 samples.

Results

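Glutathione and NRF2 antioxidant genes were examined in kidneys of mice given cinacalcet for 5 days. Cinacalcet is a calcimimetic, a compound that sensitises the calcium-sensing receptor to extracellular calcium. The set holds 39 genes given by name: the transcription factor NRF2 and its inhibitor, the enzymes of glutathione synthesis, the glutathione transferases, the peroxidases and a group of classical NRF2 targets. Members were found by matching each array probe's RefSeq accession to these symbols. This gave 57 probes for 38 of the 39 genes. No probe matched Gsta1, so Gsta1 is not analysed here. All 38 genes were well above background on all 8 arrays, and they are 38 of the 14209 named genes that were tested.

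The study compared 4 kidney samples from mice given cinacalcet hydrochloride, worded in the labels as 1 mg per g body weight, with 4 from mice on standard chow. All animals are labelled as male and 12 weeks old, and no strain or genotype was used here. Each RNA was read on 1 one-colour Agilent array, and all 8 arrays lay on 1 slide with 1 scan. The labels do not say whether the samples of a group are all from different animals, and where they are not, part of the spread behind the p-values is technical. A level below is a log2 intensity relative to the 75th percentile of its array, and a fold change is cinacalcet over control. Levels of different genes come from different probes and are not set against each other.

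NRF2, encoded by Nfe2l2, is a transcription factor that the adaptor protein KEAP1 holds in the cytoplasm and delivers for degradation. When oxidants or electrophilic chemicals modify KEAP1, NRF2 accumulates, enters the nucleus and binds antioxidant response elements in its target genes. Glutathione, the main thiol of cells, is made from glutamate, cysteine and glycine, and it is used by peroxidases to remove peroxides and by transferases to conjugate reactive compounds. The kidney's proximal tubule takes up much of the body's circulating glutathione and breaks it down at its brush border.

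The arrays labelled control 4, cinacalcet 2 and cinacalcet 3 went against the sex on their labels. None of the 4 Y-linked genes measured was well above background on them, while the other 5 arrays had 3 or 4. The X-inactivation transcript Xist lay between 0.46 and 0.95 on these 3 Y-negative arrays and between -6.99 and -4.22 on the rest. Of kidney genes known to be higher in male mice, 4 of 4 (Kap, Slco1a1, Cyp7b1 and Cyp2j13) were lower on these 3 arrays than on any other array. Both genes known to be higher in females (Slc7a12 and Prlr) were higher on these 3 arrays than on any other. The split is uneven between the groups, with 1 of 4 control arrays and 2 of 4 cinacalcet arrays, so results are also given from a fit with it as a block term and from a fit to the 5 arrays that have the signal, called Y-positive below. The 3 Y-negative arrays hold 1 control, and their differences are given without a test. Spot intensity at the 75th percentile lay between 202.9 and 257.1, with 51.8% to 58.0% of spots per array above background. The kidney label held for its markers. All 4 podocyte markers, all 4 of the thick ascending limb and distal tubule, all 3 measured markers of the collecting duct and 9 of 10 of the proximal tubule were well above background on every array.

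Cinacalcet kidneys had higher levels of 3 of 5 genes grouped here as NRF2 target enzymes and 4 of 7 mu class glutathione transferases. No member passed the test as lower. Nqo1 rose 1.78-fold, Gstm7 1.67-fold, Gstm4 1.47-fold, Gstm3 1.45-fold, Gstm1 1.43-fold, Txnrd1 1.24-fold and Srxn1 1.23-fold. These 7 of 38 members, or 18.4%, passed an adjusted p of 0.05 in limma, a linear model fitted across all genes, against 8.02% of all genes tested. Among all genes 3.37% passed as higher and 4.64% as lower, whereas the members that passed were 7 higher and 0 lower. At an unadjusted p under 0.05 there were 19 members, against 27.9% of all genes. With quantile normalization the split was 7 higher and 1 lower (Gsr), and with normexp background correction before it 8 higher and 2 lower (Gsr and Gclm). The median log2 fold change was 0.06 over the 38 members and -0.03 over all genes. The plot of estimates by role shows that the roles differed in direction. All 5 genes grouped as NRF2 target enzymes and 14 of 17 transferases had positive estimates. All 5 genes of glutathione synthesis and turnover had negative ones. The grouping does not cover every NRF2 target among the members. Of 26 other NRF2 pathway genes measured, 0 passed. Whole kidney RNA was measured, so fewer cells of a type and less RNA per cell cannot be told apart.

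**Figure D1:**
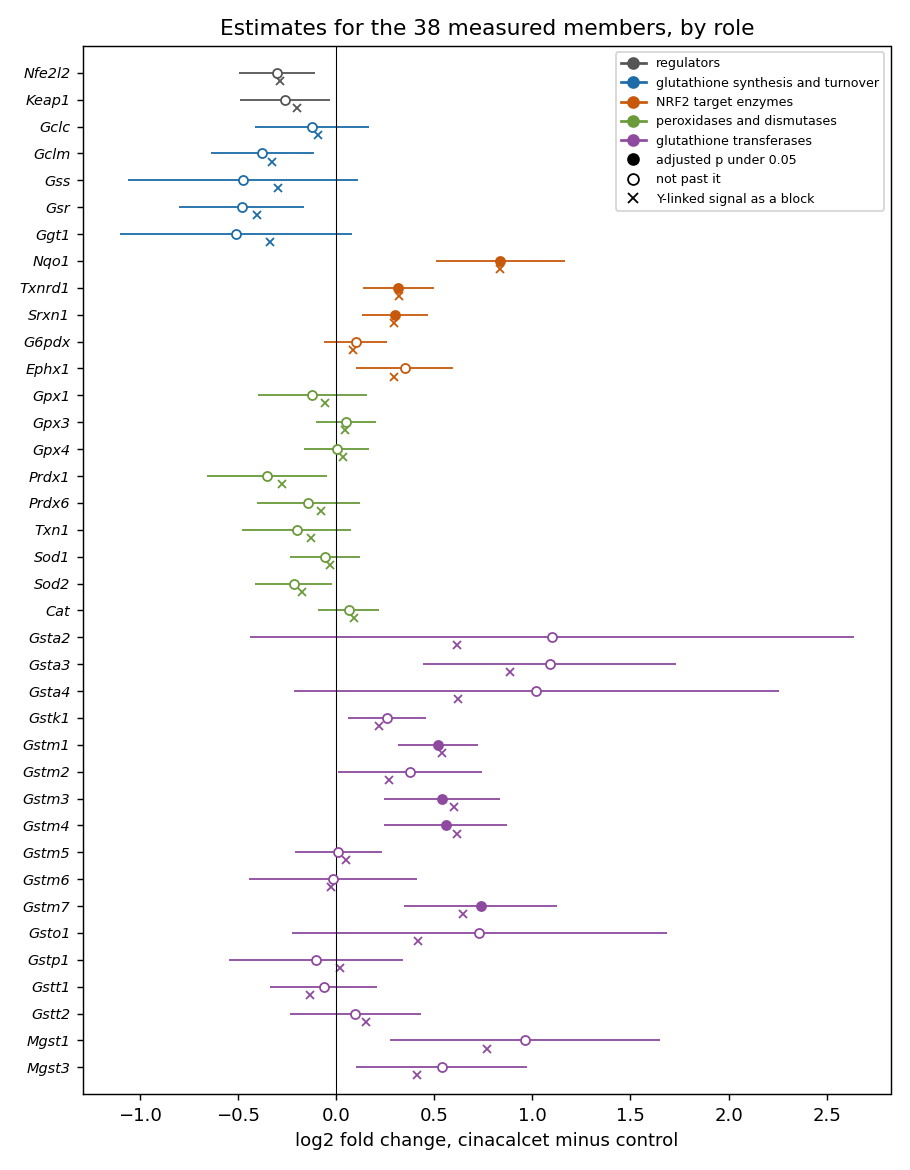
Log2 fold change of cinacalcet over control for each of the 38 measured members, with 95% confidence intervals from limma (n = 4 arrays per group). Filled points passed an adjusted p of 0.05, colours mark roles, and crosses give the estimate with the Y-linked split as a block. The 7 filled points all lie right of 0, and the 5 genes of glutathione synthesis and turnover all lie left of it.

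The calls depended on which arrays entered. The number of members past the threshold was 2, 0 and 0 without control 1, 2 or 3, and 19 without control 4, of which 11 were higher and 8 lower. The 8 lower were Keap1, Gclm, Gss, Gsr, Ggt1, Prdx1, Txn1 and Sod2, and 23.6% of all genes passed in that fit. Once control 4 is left out, every control array is Y-positive while 2 of 4 cinacalcet arrays are Y-negative. Treatment and the Y-linked split are thus partly confounded in that fit. For Keap1, Gss, Ggt1, Prdx1 and Txn1, all Y-negative arrays lay below all Y-positive ones. The number of members past the threshold was 5, 0, 1 and 2 without cinacalcet 1, 2, 3 or 4. None of the 7 members changed sign in any of the 24 alternatives, although groups that do not overlap fix the sign when arrays are left out. With the Y-linked split as a block, 15 members passed (39.5%, against 17.0% of all genes), 13 higher and 2 lower, and they included all 7. On the 5 Y-positive arrays alone, 7 members passed (18.4%, against 7.85% of all genes), 3 higher and 4 lower, of which 1 was among the 7.

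Antioxidant response elements were looked for in the promoters of the members, from 250 bases before to 50 bases after each start site in RefSeq (build GRCm38.p6). The core TGACNNNGC, read on both strands, was present in 14 of 48 windows of the 34 listed genes with a window, or 29.2%. Of all 32851 windows 12.4% held it. The 14 windows belong to 12 genes, as Ggt1 held the core in several windows, so windows are not independent. The variant core TGAGNNNGC, added after the windows had been read, was present in 6 of these 48 windows (12.5%) and in 17.6% of all windows. All 7 members that rose had a window, and Gstm7, Srxn1 and Txnrd1 held the first core. These 3 windows are printed as those of members past the threshold that hold the first core. Whether the core is linked to the change in level was not tested. Capitals mark matches to either core, and no base is shared between matches in a window. Gstm7 lies at chr3:107931565-107931864 (minus strand), Srxn1 at chr2:152105274-152105573 (plus strand) and Txnrd1 at chr10:82858956-82859255 (plus strand), each printed 5′ to 3′ on the gene's own strand.
Gstm7: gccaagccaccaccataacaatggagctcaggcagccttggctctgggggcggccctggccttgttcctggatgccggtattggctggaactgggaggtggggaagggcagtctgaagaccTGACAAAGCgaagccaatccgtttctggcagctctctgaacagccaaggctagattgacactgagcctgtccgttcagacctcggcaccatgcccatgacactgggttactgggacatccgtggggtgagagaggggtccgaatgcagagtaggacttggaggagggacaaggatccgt
Srxn1: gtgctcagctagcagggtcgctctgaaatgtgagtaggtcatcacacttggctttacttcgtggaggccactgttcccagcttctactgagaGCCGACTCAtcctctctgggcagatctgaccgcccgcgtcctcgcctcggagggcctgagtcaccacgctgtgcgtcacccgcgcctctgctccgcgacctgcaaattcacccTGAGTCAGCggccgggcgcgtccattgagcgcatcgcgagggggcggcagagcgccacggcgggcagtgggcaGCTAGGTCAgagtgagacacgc
Txnrd1: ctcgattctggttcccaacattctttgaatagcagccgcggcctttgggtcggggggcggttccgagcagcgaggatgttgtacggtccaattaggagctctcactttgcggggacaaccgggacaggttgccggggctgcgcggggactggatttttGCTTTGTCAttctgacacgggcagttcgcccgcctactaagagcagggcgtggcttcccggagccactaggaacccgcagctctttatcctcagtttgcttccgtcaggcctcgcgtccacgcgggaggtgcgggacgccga

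The first base of the match lies 129 bases before the start site in Gstm7 and 92 before it in Txnrd1. In Srxn1 the TGACNNNGC core begins at base 29 from the start, on the other strand, and 2 matches to TGAGNNNGC begin 158 and 45 bases before it. The windows of Nqo1, Gstm1, Gstm3 and Gstm4 did not hold either run of letters, and bases outside the windows were not searched. Members that did not pass also held the first core. They were G6pdx, Gclm, Ggt1, Gsta3, Gstm5, Mgst1, Nfe2l2, Prdx1 and Sod1. The match in Gclm, GCACCGTCA, begins 134 bases before the start site. A match is a run of letters and was not tested for binding.

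The regulators themselves did not pass the test, and both had negative estimates. Nfe2l2 read 3.42, 3.44, 3.42 and 3.57 on controls 1 to 4 and 3.24, 3.02, 3.09 and 3.30 on cinacalcet 1 to 4. All 4 cinacalcet arrays thus lay below all 4 control arrays, with a log2 difference of -0.30 (SE 0.08, limma adjusted p = 0.0660). The difference was -0.29 with the Y-linked split as a block (limma adjusted p = 0.0549). It was -0.16 on the Y-positive arrays (limma adjusted p = 0.189) and -0.52 on the Y-negative arrays. Keap1 read 3.48, 3.55, 3.48 and 3.22 on the controls and 3.25, 3.03, 3.09 and 3.31 on cinacalcet, and control 4 lay within the cinacalcet range. Its log2 difference was -0.26 (SE 0.10, limma adjusted p = 0.137), and -0.20 with the Y-linked split as a block (limma adjusted p = 0.0499). These are transcript levels, and NRF2 is known to be regulated mainly through its protein.

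Genes of glutathione synthesis and turnover were lower on the cinacalcet arrays by estimate, and none of the 5 passed (unadjusted p under 0.05 for Gclm and Gsr). Gclc and Gclm encode the catalytic and modifier subunits of glutamate-cysteine ligase, the rate-limiting enzyme of glutathione synthesis. Gclm read 2.40, 2.46, 2.42 and 1.96 on controls 1 to 4 and between 1.91 and 1.95 on the 4 cinacalcet arrays. The groups did not overlap, but control 4 differed from the mean of the other 3 controls by -0.47 and lay just above the cinacalcet arrays. The log2 difference was -0.38 (SE 0.11, limma adjusted p = 0.0815). On the 5 Y-positive arrays Gclm fell by 0.49 (limma adjusted p = 0.0300), and on the 3 Y-negative arrays its difference was -0.03. Gclc ranged from 3.92 to 4.52 on controls and from 4.01 to 4.11 on cinacalcet, with a log2 difference of -0.12 and a 95% confidence interval from -0.41 to 0.17 (limma adjusted p = 0.551).

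Glutathione synthetase, encoded by Gss, joins glycine in the last step of synthesis. Gss read 5.12, 4.97, 5.00 and 4.05 on controls 1 to 4 and 4.65, 3.99, 4.12 and 4.47 on cinacalcet 1 to 4. The 3 Y-negative arrays were the 3 lowest. Ggt1 encodes gamma-glutamyltransferase, the brush border enzyme that starts the breakdown of glutathione, and the same 3 arrays were its lowest, with 6.61, 6.66, 6.69 and 5.61 on the controls and 6.15, 5.63, 5.68 and 6.07 on cinacalcet. The groups overlapped for both genes, with log2 differences of -0.48 for Gss and -0.51 for Ggt1 (limma adjusted p of 0.263 and 0.234). On the 5 Y-positive arrays both fell, Gss by 0.47 and Ggt1 by 0.55 (limma adjusted p of 0.0489 and 0.0286). On the 3 Y-negative arrays the levels hardly differed, with log2 differences of 0.01 for Gss and 0.04 for Ggt1. Whether the sides of the split differ in these responses was not tested.

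Gsr encodes glutathione reductase, which restores reduced glutathione from its disulfide. It read 5.40, 5.35, 5.47 and 4.96 on controls 1 to 4 and 4.76, 4.71, 4.69 and 5.08 on cinacalcet 1 to 4. Control 4 and cinacalcet 4 crossed, and the other arrays were separate. The log2 difference was -0.48 (SE 0.14, limma adjusted p = 0.0693), and a dimmer probe gave -0.51. With the Y-linked split as a block Gsr fell by 0.40 (limma adjusted p = 0.0271), and it did not pass on the 5 Y-positive arrays (limma adjusted p = 0.0670).

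Of the 5 NRF2 target enzymes, 3 rose and 2 did not pass, with a median log2 fold change of 0.32. Nqo1, a quinone reductase that is a standard read-out of NRF2 activity, read 1.07, 0.88, 0.94 and 0.88 on controls 1 to 4 and 1.38, 1.80, 1.84 and 2.10 on cinacalcet 1 to 4. Every cinacalcet array lay above every control array, and control 4 lay beside control 2. Nqo1 rose from 0.94 ± 0.09 to 1.78 ± 0.29 (SD, n = 4), a log2 fold change of 0.84 (SE 0.14, limma adjusted p = 0.0185). It was 0.83 with the Y-linked split as a block (limma adjusted p = 0.0136) and 0.78 on the 5 Y-positive arrays (limma adjusted p = 0.0875). The call held in 4 of the 8 fits that left out 1 array (limma adjusted p of 0.00397 to 0.0632), those without control 1, control 4, cinacalcet 1 or cinacalcet 4.

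Txnrd1 encodes the cytosolic thioredoxin reductase, which keeps thioredoxin reduced. It read 4.14, 4.02, 4.11 and 3.97 on controls 1 to 4 and 4.25, 4.33, 4.47 and 4.45 on cinacalcet 1 to 4, without overlap. The rise was 0.32 on the log2 scale (SE 0.08, limma adjusted p = 0.0483). Srxn1 encodes sulfiredoxin, which repairs overoxidised peroxiredoxins, and read 3.91, 3.91, 3.96 and 4.05 on the controls and 4.25, 4.13, 4.30 and 4.33 on cinacalcet. The groups did not overlap, and the rise was 0.30 (SE 0.07, limma adjusted p = 0.0465). Srxn1 was the 1 of the 7 that also passed on the 5 Y-positive arrays (log2 fold change 0.37, limma adjusted p = 0.0465), and its difference on the 3 Y-negative arrays was 0.17. With 1 array left out, the call for Txnrd1 held without control 4 or cinacalcet 1 and that for Srxn1 without control 4 (limma adjusted p up to 0.134 and 0.129).

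Ephx1, the microsomal epoxide hydrolase gene, read 4.53, 4.47, 4.28 and 4.76 on controls 1 to 4 and 4.80, 4.96, 4.87 and 4.80 on cinacalcet 1 to 4. The groups did not overlap, by a margin of a few hundredths, and the log2 difference of 0.35 did not pass (SE 0.11, limma adjusted p = 0.0829). It passed with the Y-linked split as a block, at 0.30 (limma adjusted p = 0.0499). G6pdx, whose enzyme supplies NADPH for the recycling of glutathione, ranged from 2.96 to 3.06 on controls and from 3.00 to 3.18 on cinacalcet, with a difference of 0.10 and a 95% confidence interval from -0.06 to 0.26. In all, 10 of 38 members had groups that did not overlap, 8 higher and 2 lower (26.3%, against 17.8% of all genes). They were the 7 that rose, Ephx1, Nfe2l2 and Gclm.

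**Figure D2:**
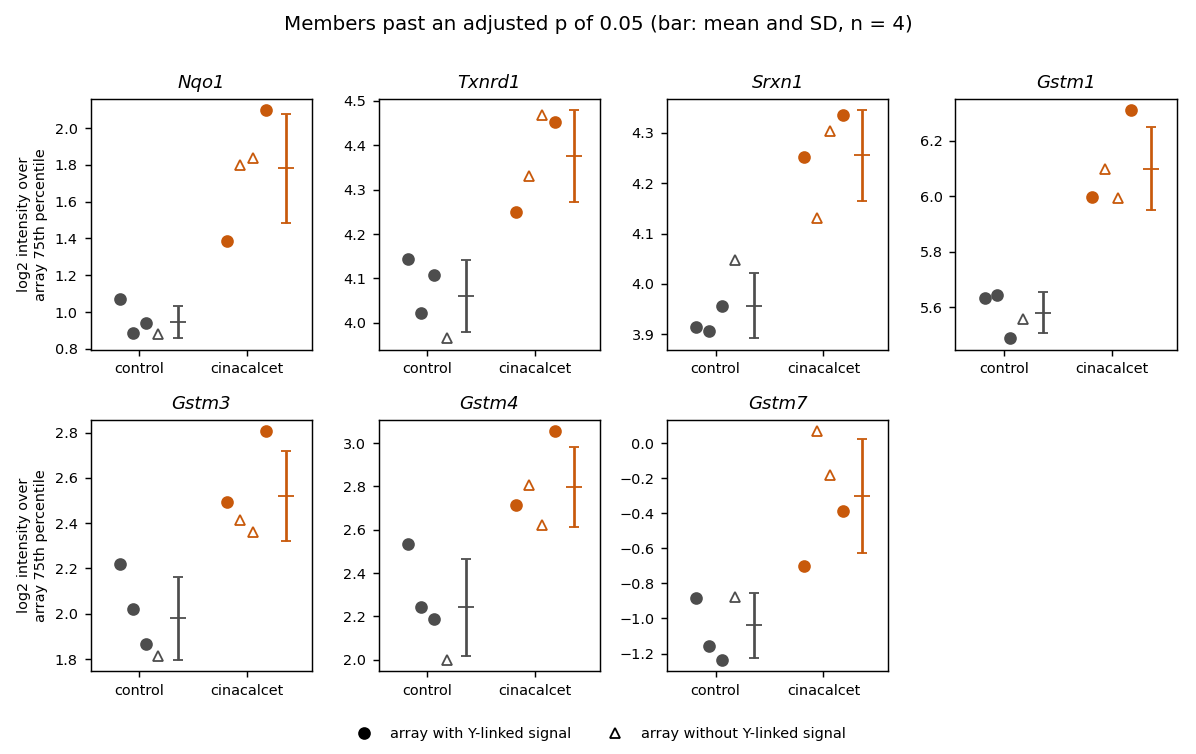
Log2 intensity relative to the array's 75th percentile of the 7 members past an adjusted p of 0.05, on each of 4 control and 4 cinacalcet arrays. Circles are arrays with Y-linked signal and open triangles arrays without it, and bars give the mean and SD (n = 4). In each panel all 4 cinacalcet arrays lie above all 4 control arrays.

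The mu class transferases conjugate glutathione to electrophiles in the cytosol and lie together on chromosome 3. Of 7 measured genes 4 rose (Gstm1, Gstm3, Gstm4 and Gstm7) and 3 did not pass, with a median log2 fold change of 0.52. Gstm1 read 5.63, 5.64, 5.49 and 5.56 on controls 1 to 4 and 6.00, 6.10, 5.99 and 6.31 on cinacalcet 1 to 4. Each control array lay below each cinacalcet array, and control 4 lay within the range of the other controls. Gstm1 rose by 0.52 on the log2 scale (SE 0.09, limma adjusted p = 0.0191), and its other probe gave 0.53. The rise was 0.54 with the Y-linked split as a block (limma adjusted p = 0.0102) and 0.57 on the 5 Y-positive arrays (limma adjusted p = 0.0537).

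Gstm3 read 2.22, 2.02, 1.87 and 1.81 on controls 1 to 4 and 2.50, 2.42, 2.36 and 2.81 on cinacalcet 1 to 4, and rose by 0.54 (SE 0.13, limma adjusted p = 0.0437). The other probe of Gstm3 was well above background on 0 arrays and was not kept. Gstm4 read 2.54, 2.24, 2.19 and 2.00 on the controls and 2.71, 2.81, 2.62 and 3.05 on cinacalcet, and rose by 0.56 (SE 0.14, limma adjusted p = 0.0466). In both genes cinacalcet 4 was the highest array and control 4 the lowest. A second, dimmer probe of Gstm4 gave -0.18, and with the mean over both probes the log2 fold change of Gstm4 was 0.19 and did not pass (limma adjusted p = 0.266). Gstm7 read -0.88, -1.16, -1.24 and -0.88 on controls 1 to 4 and -0.70, 0.07, -0.18 and -0.39 on cinacalcet 1 to 4. It rose by 0.74 (SE 0.17, limma adjusted p = 0.0403), its other probe gave 0.78, and with normexp background correction it rose by 0.46 and did not pass (limma adjusted p = 0.0508).

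Of the remaining mu genes, Gstm2 lay between 3.93 and 4.37 on controls and between 4.22 and 4.79 on cinacalcet (log2 difference 0.38, limma adjusted p = 0.172). On Gstm2 the 3 Y-negative arrays were the 3 highest. Gstm5 had a difference of 0.01 with a 95% confidence interval from -0.21 to 0.23, and Gstm6 one of -0.02 with an interval from -0.44 to 0.41. Both intervals end below the estimate for Gstm1. The mu genes are close paralogs and their probes may share signal. With 1 array left out, the call for Gstm1 held in 4 of 8 fits, for Gstm4 and Gstm7 in 2 and for Gstm3 in 1 (limma adjusted p up to 0.0664, 0.127, 0.115 and 0.124).

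The 3 alpha class genes and Mgst1 had the 4 largest positive estimates among the 38 members and did not pass, and Gsto1 and Mgst3 also had positive estimates. The Y-negative arrays lay high for these genes in both groups. Gsta2 read 3.34, 3.09, 3.14 and 5.46 on controls 1 to 4 and 3.51, 5.70, 5.69 and 4.52 on cinacalcet 1 to 4. The 3 Y-negative arrays were the 3 highest, in either group. Its log2 difference was 1.10 (SE 0.67, limma adjusted p = 0.320), and 0.62 with the split as a block (limma adjusted p = 0.103). Gsta2 is near-identical to Gsta1, and its probe may not tell them apart.

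Gsta3 encodes an alpha class enzyme known in mice for detoxifying aflatoxin epoxide. It read 5.20, 5.13, 5.08 and 6.10 on controls 1 to 4 and 5.96, 6.82, 6.79 and 6.30 on cinacalcet 1 to 4. Control 4 lay above cinacalcet 1, and within each side of the split the cinacalcet arrays were higher. The log2 difference was 1.09 (SE 0.28, limma adjusted p = 0.0529). Gsta3 rose by 0.89 with the split as a block (limma adjusted p = 0.00442) and by 0.99 on the 5 Y-positive arrays (limma adjusted p = 0.0264), with a difference of 0.70 on the 3 Y-negative arrays. Both of its probes gave 1.09.

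Gsta4, whose enzyme conjugates the lipid peroxidation product 4-hydroxynonenal, read 0.22, -0.25, -0.32 and 1.41 on controls 1 to 4 and 0.40, 2.21, 2.01 and 0.53 on cinacalcet 1 to 4. Gsto1, an omega class transferase with thiol transferase activity, read 3.24, 3.23, 3.11 and 4.49 on the controls and 3.54, 4.82, 4.89 and 3.73 on cinacalcet. For both genes the 3 Y-negative arrays lay above the other 5, by a gap larger than the difference between treatments on either side. The log2 differences were 1.02 and 0.73 (limma adjusted p of 0.254 and 0.290). With the split as a block both rose, Gsta4 by 0.62 and Gsto1 by 0.42 (limma adjusted p of 0.0218 and 0.0112).

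The microsomal transferases are membrane proteins with both transferase and peroxidase activity. Mgst1 read 2.55, 2.33, 2.21 and 3.46 on controls 1 to 4 and 3.06, 3.83, 3.91 and 3.61 on cinacalcet 1 to 4, with a log2 difference of 0.96 (SE 0.30, limma adjusted p = 0.0848). It rose by 0.77 with the split as a block (limma adjusted p = 0.0231) and by 0.97 on the 5 Y-positive arrays (limma adjusted p = 0.0498), with a difference of 0.41 on the 3 Y-negative arrays. Mgst3 read 4.88, 4.96, 4.82 and 5.52 on the controls and 5.20, 5.83, 5.72 and 5.57 on cinacalcet. It had a difference of 0.54 (limma adjusted p = 0.114) and rose by 0.41 with the block (limma adjusted p = 0.0331). In both genes control 4 was the highest control.

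The remaining 4 transferases passed neither in the main fit nor with the split as a block. Gstk1, a mitochondrial and peroxisomal enzyme, had a log2 difference of 0.26 (limma adjusted p = 0.104). Gstt1 and Gstt2 had differences of -0.06 and 0.10. Gstp1, the pi class enzyme, had -0.10 with a 95% confidence interval from -0.55 to 0.34, and the 3 Y-negative arrays were the 3 lowest. Over all 17 transferases 4 rose and 0 fell, with a median log2 fold change of 0.54, and with the split as a block 9 rose and 0 fell, with a median of 0.42. The shares that rose were 23.5% and 52.9%, against 3.37% and 6.64% of all genes in the same fits.

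**Figure D3:**
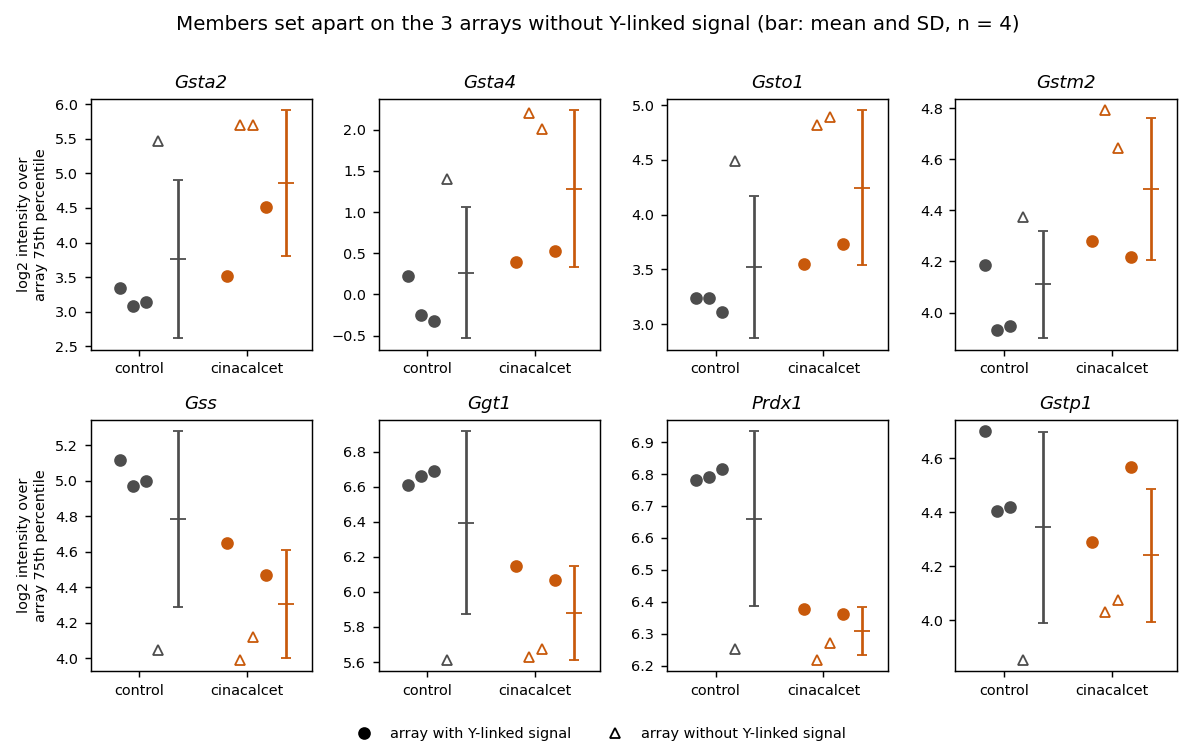
Log2 intensity relative to the array's 75th percentile of 8 members on each of 4 control and 4 cinacalcet arrays. Open triangles are the 3 Y-negative arrays, circles the other 5, and bars give the mean and SD (n = 4). The triangles are the highest points for Gsta2, Gsta4, Gsto1 and Gstm2 and the lowest for Gss, Ggt1, Prdx1 and Gstp1.

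In 11 of 38 members the 3 Y-negative arrays all lay outside the range of the other 5 (28.9%, against 24.4% of all genes), 4 above and 7 below. This share is near that of all genes. The 4 above were Gsta2, Gsta4, Gstm2 and Gsto1, and the 7 below were Keap1, Gss, Ggt1, Gpx4, Prdx1, Txn1 and Gstp1. On the 5 Y-positive arrays, sex-biased genes also differed between the groups. The summed level of the 2 genes known to be higher in females lay between -0.48 and 0.64 on the 3 controls and between 1.68 and 1.71 on the 2 cinacalcet arrays, and 1 of the 2, Prlr, rose (limma adjusted p = 0.0264). The summed level of the 4 genes known to be higher in males lay between 10.47 and 10.79 on those controls and between 10.37 and 10.45 on those cinacalcet arrays, and 3 of the 4 fell (Slco1a1, Cyp7b1 and Cyp2j13, limma adjusted p of 0.0169 to 0.0254). The alpha class genes, Mgst1, Mgst3, Gsto1, Gss and Ggt1 had estimates between these controls and cinacalcet arrays in the same direction as their difference between the Y-negative and Y-positive arrays. The part of this shift in the results was not tested.

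**Figure D4:**
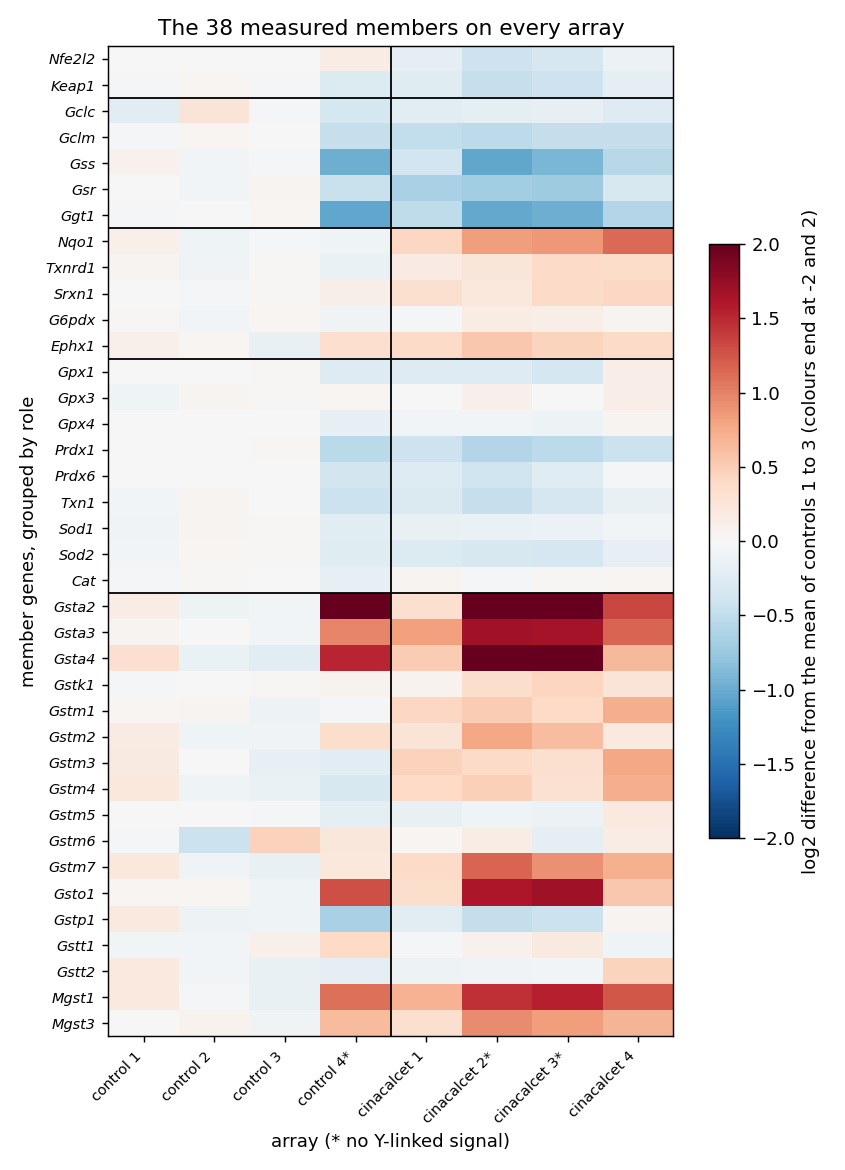
Log2 difference of each of the 38 measured members from its mean on controls 1 to 3, for each array (columns, with an asterisk where Y-linked signal was absent). Colours end at -2 and 2, and lines separate the roles and the groups. Control 4 differs in the same direction as the cinacalcet arrays in Gss, Ggt1, Prdx1, Gsta2, Gsta3, Gsta4, Gsto1 and Mgst1. In Gss, Ggt1, Prdx1, Gsta2, Gsta4 and Gsto1 its level is nearest to those of cinacalcet 2 and cinacalcet 3, which also lack Y-linked signal. It shares the colours of the other controls in Nqo1 and Gstm1.

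No peroxidase, dismutase or thioredoxin gene among the members passed in the main fit. Of the 9 genes, 0 passed in limma, and the median log2 fold change was -0.12. An unadjusted limma p under 0.05 was found for 2 of the 9 (22.2%, against 27.9% of all genes). Gpx1, Gpx3 and Gpx4 encode glutathione peroxidases, of which the secreted GPX3 is made mainly in the kidney. Their log2 differences were -0.12, 0.05 and 0.00, with 95% confidence intervals from -0.40 to 0.16, from -0.10 to 0.20 and from -0.16 to 0.17. Catalase (Cat) had a difference of 0.06 and the cytosolic superoxide dismutase Sod1 one of -0.06, and the mitochondrial dismutase Sod2 had -0.22 (limma adjusted p = 0.147).

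Prdx1, a peroxiredoxin that removes hydrogen peroxide with electrons from thioredoxin, read 6.78, 6.79, 6.82 and 6.25 on controls 1 to 4 and 6.38, 6.22, 6.27 and 6.36 on cinacalcet 1 to 4. Control 4 lay within the cinacalcet range. The log2 difference was -0.35 (limma adjusted p = 0.134), and Prdx1 fell by 0.43 on the 5 Y-positive arrays (limma adjusted p = 0.0343). On the 3 Y-negative arrays its difference was -0.01. Prdx6 had a difference of -0.14 on its brightest probe, and its 4 probes ranged from -0.14 to 0.05. Txn1, encoding thioredoxin, had -0.20 (limma adjusted p = 0.315).

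Other genes of the same pathways were counted from lists chosen with earlier results of these data known. Of 43 other glutathione and antioxidant genes, 2 rose, 1 fell and 40 did not pass, with a median log2 fold change of -0.10. Those 3 are 6.98% of the list, near the 8.02% of all genes, so the count does not set the list apart. Ggt6, a relative of Ggt1, rose 1.55-fold (limma adjusted p = 0.0149) and Gpx6, another glutathione peroxidase gene, rose 1.42-fold (limma adjusted p = 0.0228). Dpep1, a brush border dipeptidase that acts after gamma-glutamyltransferase, fell 1.40-fold (limma adjusted p = 0.0467). With the Y-linked split as a block 2 of the 43 rose and 6 fell, or 18.6% against 17.0% of all genes. The 6 were Dpep1, Me1, Selenop, Txnrd2, Prdx2 and Chac2, of which the malic enzyme gene Me1 fell by 0.77 (limma adjusted p = 0.0038) and the selenium carrier gene Selenop by 0.70 (limma adjusted p = 0.0240). Of 26 other NRF2 pathway genes, 0 passed in limma, and the median log2 fold change was 0.05. An unadjusted limma p under 0.05 was found for 4 of the 26 (15.4%, against 27.9% of all genes). With the Y-linked split as a block 3 of the 26 rose, the carbonyl reductase genes Cbr1 and Cbr3 and the efflux pump gene Abcc4 (log2 fold changes of 0.83, 0.74 and 0.85, limma adjusted p of 0.0058, 0.0250 and 0.0090). The pentose phosphate pathway gene Taldo1 fell by 0.36 in that fit (limma adjusted p = 0.0116). These 4 are 15.4% of the list, against 17.0% of all genes. The genes of both lists named for the block alone were chosen after their values were seen. Hmox1, the haem oxygenase gene that NRF2 also induces, ranged from 3.52 to 4.02 on controls and from 3.63 to 3.94 on cinacalcet, and is named after its values were seen.

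Markers of other cells differed between the groups beside these results. All 4 measured erythroid genes fell, and their summed level lay between 6.54 and 8.30 on cinacalcet and between 8.97 and 9.49 on controls. Of 5 blood and immune cell markers 2 fell (Adgre1 and Csf1r), with summed levels of 4.38 to 4.73 on cinacalcet and 4.95 to 5.09 on controls. Of 6 fat markers 1 fell (Ucp1), and the summed levels overlapped, at 2.19 to 6.07 on cinacalcet and 4.17 to 7.11 on controls. The summed proximal tubule markers lay between 10.67 and 10.99 on cinacalcet and between 10.73 and 11.06 on controls, and none of 10 passed in the main fit. With the Y-linked split as a block 2 of the 10 fell (20%, against 17.0% of all genes). These were Slc22a6 by 0.43 and Slc7a13 by 1.61 (limma adjusted p of 0.0307 and 0.0070), and both also fell on the Y-positive arrays. The part of all these cell markers in the results was not tested.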

How the data were processed

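Total RNA of 8 kidney samples was labelled with Cy3 and read on one-colour arrays, per the labels. What the authors deposited is scanner output with spot intensity on a linear scale, made with Agilent Feature Extraction 11.0.1.1 per the file headers, while the submitters' processing notes name version 9.5. The processed intensity was background-subtracted by that software, and no normalization between arrays is recorded. The software's 0 or 1 flags, deposited by the authors in the same files, gave detection and outlier marks.

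Control spots were left out, spots marked as outliers (118 to 147 per array) were set to missing, log2 intensity was centred on each array's 75th percentile, and spots of 1 probe were averaged. No spot was saturated. Probes were named by accession through RefSeq (GRCm38.p6), 27235 with 1 gene, 28446 with none and 0 with several. Probes were kept where 4 or more of the 8 arrays had them well above background, and the brightest kept probe stood for its gene, giving 14209 genes. Groups, taken from the sample titles, were compared with limma 3.58.1 in R 4.3.3 with Benjamini-Hochberg adjustment over all genes and no covariates. The fit was tested on simulated data with independent noise on each array. The simulation held no Y-linked split, so it cannot show how the fit behaves with that split. Arrays, 4 per group, limit the precision.

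The members, lists and tests were chosen with earlier results of these data known. All 38 measured members are named, the lists' genes only where past the threshold (up to 6 per list). Genes outside this rule are marker genes or said to be. Marker lists covered Y-linked and sex-biased genes, 4 kidney segments or cell groups, blood and immune cells, erythroid cells, fat and the adrenal gland. Adrenal markers, 2 of 4 measured, did not pass. Alternatives are listed in the closing section. The fit to the 3 arrays without Y-linked signal was added after seeing the data. Samples were not paired by replicate number in the main fit. Deviations from group means correlated at 0.34, -0.54, -0.36 and -0.56 for numbers 1 to 4. Over all pairs of a control and a cinacalcet array, correlations were positive where the arrays were alike in Y-linked signal and negative otherwise. They thus cannot show whether replicate numbers pair the samples. All arrays shared 1 slide and 1 scan, so slide position was tried as a block. The arrays in column 1 were all cinacalcet and those in column 4 all control, so column is partly confounded with treatment.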

Additional observations from a re-analysis of the deposited data

Results flagged for a closer look

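Within a group of 4 arrays, the highest or lowest array was set apart where its gap to the nearest other array, divided by the group's range, was above Dixon's 95% critical value. Chance gives this in about 1 in 20 groups. It was found in 14 of 76 groups of members, and in 12 of these the array was control 4. As 1 array accounts for these 12, they are not separate findings.

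Control 4 was the lowest control for Prdx6 (gap ratio 0.956), Prdx1 (0.938), Ggt1 (0.929), Gpx4 (0.884), Gclm (0.878), Gstm5 (0.866), Gss (0.865) and Gpx1 (0.861). It was the highest control for Gsto1 (0.904), Gsta2 (0.894), Gsta3 (0.885) and Nfe2l2 (0.84). For Prdx6 control 4 was at 5.83 and the other controls between 6.19 and 6.20. For Gpx1 it was at 9.30 against 9.55 to 9.59, for Gpx4 at 8.03 against 8.19 to 8.21 and for Gstm5 at 4.57 against 4.75 to 4.78. Control 4 is the control array without Y-linked signal.

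Among cinacalcet arrays, cinacalcet 4 was the highest for Gsr (0.831) and Gstt2 (0.897). Gstt2 was at 6.40 on it and between 5.85 and 5.91 on the other 3. Cinacalcet 4 had Y-linked signal.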

How the results depend on the processing

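Of 24 alternatives, the counts of members past the threshold (7) and of all genes (1139) stayed within 1.5 times under both scalings with quantile normalization, normexp with the 75th percentile, detection on all arrays, the mean over probes, eBayes with trend and robust settings and the 5 arrays with Y-linked signal. Without the filter on dim probes 2 members and 367 genes passed. Array weights gave 26 members and 5438 genes, and Y-linked signal as a block 15 and 2417. Slide row as a block gave 3 members and left the gene count at 921. The replicate block gave 0 members and 0 genes in limma (15 and 2869 at an unadjusted p under 0.05). Slide column as a block gave 0 members and 34 genes (19 members and 3460 genes at an unadjusted p under 0.05). Within slide row 1 limma called 0 members and 1 gene (20 members and 3860 genes at an unadjusted p under 0.05). Within row 2 it called 0 and 0 (4 members and 1068 genes). The 3 arrays without Y-linked signal, with 1 control assumed to vary like the rest, gave 0 and 0 (11 members and 2945 genes). With 1 array left out, members ranged from 0 to 19 and genes from 218 to 3356. Rows, columns and single arrays leave fewer samples or degrees of freedom, and columns were also uneven between the groups. Causes were not tested otherwise. The median log2 fold change of all genes was -0.01 with quantile normalization. No called member changed sign in any alternative, and uncalled members did, up to 7 of 31 on the 3 arrays without Y-linked signal (Gclc, Gss, Ggt1, Prdx6, Txn1, Sod1 and Gstp1, from negative to positive estimates).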
